A study of Mus musculus with 12 samples.

Results

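The small leucine-rich proteoglycans are secreted matrix proteins, and 8 of their genes are described here together with Cilp, which encodes a cartilage matrix protein outside that family. These 9 genes, out of 16288 listed in the files, were Fmod, Dcn, Bgn, Lum, Ogn, Prelp, Aspn, Podn and Cilp. Fmod and Cilp were chosen by their measured values, as they were among the largest falls in expression with the compound PFI-3, so their response to PFI-3 is given as a description without a test. That choice used their levels in the DMSO libraries as well, so their changes with time are also described only. The other 7 were taken as relatives of Fmod, and their changes were tested.

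RNA was sequenced from C2C12, an immortalised mouse myoblast line that can be driven to form muscle cells in culture. Cells received the vehicle DMSO or 50 uM PFI-3, an inhibitor that occupies the bromodomains of BRM and BRG1, the ATPases of a chromatin remodeller, and of the related protein PB1. They were harvested while proliferating in growth medium with 10% fetal bovine serum (GM), or 24 h or 48 h after a switch to differentiation medium with 2% horse serum and 2 ug/ml insulin (DM 24h and DM 48h). In every group the agent was given for 12 h beforehand, and in differentiation medium it was renewed every 24 h. Exposure to the agent was therefore longer at the later stages. A difference in PFI-3 effect between stages cannot be told apart from one of exposure time. There were 2 libraries (A and B) in each of the 6 groups, which the labels call biological duplicates. Nothing further says that they came from separate cultures, so the p-values measure the spread between these libraries, which may be technical.

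A small leucine-rich proteoglycan has a core of leucine-rich repeats that binds collagen, and most carry chondroitin, dermatan or keratan sulfate chains. The proteins are known for setting the width and spacing of collagen fibrils in tendon, skin, cornea, cartilage and the connective tissue around muscle fibres. Several also bind growth factors of the TGF-beta family. In bulk RNA a smaller number of expressing cells and less RNA per cell cannot be told apart.

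Totals of expected counts ranged from 12576374 to 13658352 over the 12 libraries. The GM pairs stood apart in their spread: over 10656 genes averaging 50 counts or more, the log2 ratio of library B to A had an SD of 0.367 and 0.333 in the GM groups and 0.144 to 0.168 in the DM groups. All groups share one estimate of the spread in the main test, so each DM result below was also computed without the 4 GM libraries. Muscle markers were high in every DM library. Of the markers of other cell types, Tcf21 (fibroblast), Acan and Ibsp (cartilage and bone), Plin1 and Lep (adipocyte), and Adgre1 and Cd3e (immune) were at 0 in all 12 libraries. Others of the same lists were found in every library: Scx, Ly6a and Pdgfra (fibroblast and tendon) reached 163, 62.4 and 25.9 CPM (counts per 1000000 of the scaled library total), Runx2 and Sox9 (cartilage and bone) 155 and 98.5, Pparg and Cebpa (adipocyte) 23.4 and 21.3, and Cd68 (immune) 9.05. Counts of the 9 genes were whole numbers throughout, with no visible division of reads between genes.

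The sequences before 6 of the genes are shown because 5 of them were lower with PFI-3 at both DM stages and the sixth, Ogn, was induced as well but kept most of its level. They are the 250 bases before the start of the RefSeq transcript in GRCm38.p6, the build that matches the mm10 of the submitters' processing notes. Capitals mark E-boxes, CANNTG, the motif bound by MYOD1 and its relatives.
Fmod (chr1:134037004-134037253, plus strand): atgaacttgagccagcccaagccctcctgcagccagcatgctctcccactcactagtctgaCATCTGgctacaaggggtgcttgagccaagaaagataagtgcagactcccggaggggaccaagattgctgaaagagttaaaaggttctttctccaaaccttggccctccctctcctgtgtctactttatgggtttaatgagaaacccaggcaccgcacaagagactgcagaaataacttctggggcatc
Cilp (chr9:65264930-65265179, plus strand): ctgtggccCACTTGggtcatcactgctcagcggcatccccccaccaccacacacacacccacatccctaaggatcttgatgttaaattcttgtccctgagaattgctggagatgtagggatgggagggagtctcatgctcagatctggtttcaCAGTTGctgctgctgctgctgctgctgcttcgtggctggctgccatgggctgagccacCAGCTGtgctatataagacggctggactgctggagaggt
Bgn (chrX:73483351-73483600, plus strand): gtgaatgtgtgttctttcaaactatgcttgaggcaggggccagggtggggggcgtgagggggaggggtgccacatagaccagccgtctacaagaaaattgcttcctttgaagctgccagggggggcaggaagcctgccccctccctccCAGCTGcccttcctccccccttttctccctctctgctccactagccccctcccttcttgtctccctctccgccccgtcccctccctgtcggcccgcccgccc
Prelp (chr1:133921402-133921651, minus strand): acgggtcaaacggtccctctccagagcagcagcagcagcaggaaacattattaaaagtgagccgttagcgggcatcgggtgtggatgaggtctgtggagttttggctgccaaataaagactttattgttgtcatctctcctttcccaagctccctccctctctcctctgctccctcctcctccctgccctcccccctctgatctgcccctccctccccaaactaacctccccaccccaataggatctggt
Aspn (chr13:49544193-49544442, plus strand): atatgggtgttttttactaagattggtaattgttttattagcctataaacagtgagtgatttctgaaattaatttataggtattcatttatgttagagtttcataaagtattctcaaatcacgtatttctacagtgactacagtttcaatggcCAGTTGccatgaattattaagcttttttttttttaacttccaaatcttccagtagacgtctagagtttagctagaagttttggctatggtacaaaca
Ogn (chr13:49607765-49608014, plus strand): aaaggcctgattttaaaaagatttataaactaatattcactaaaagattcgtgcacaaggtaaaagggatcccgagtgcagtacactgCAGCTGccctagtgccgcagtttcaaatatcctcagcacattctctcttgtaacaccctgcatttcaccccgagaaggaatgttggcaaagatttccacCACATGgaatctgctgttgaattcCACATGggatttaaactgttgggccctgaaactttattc
An E-box was found 1 time before Fmod, 189 bases from the start, 3 times before Cilp, 1 time before Bgn, 1 time before Aspn and 3 times before Ogn, and not before Prelp. CANNTG occurs in 66.2% of 32536 such windows, so its presence sets no gene apart. The form with a GC core, CAGCTG, which is contained in CANNTG, lay 39 bases before the start of Cilp, 102 before Bgn and 162 before Ogn, against 13.1% of all windows. Of 3 other motifs searched on both strands, the TEAD motif GGAATG (12.6% of windows) was found before Ogn, the AP-1 motif TGANTCA (6.7%) before none of the 6, and TATAAA (12.3%) before Ogn and Aspn. These matches are descriptions of letters and not of bound sites. For Prelp this window lies inside the longer RefSeq gene span, chr1:133910304-133930102, so it precedes an internal start. The sequence before that whole span was not searched.

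In DMSO-treated cells Bgn, which encodes biglycan, a chondroitin and dermatan sulfate proteoglycan, was the main transcript of the set at every stage. Its deposited FPKM, a level per transcript length, was 407.35 and 444.22 in GM, then 836.62 and 835.94 at DM 24h, then 1006.90 and 942.72 at DM 48h. By mean FPKM it ranked 149th, 62nd and 52nd of 12545 genes at the 3 stages. Ogn, which encodes osteoglycin (mimecan), came next, with FPKM 1.31 and 9.56 in GM, then 170.01 and 163.68 at DM 24h, then 199.00 and 211.41 at DM 48h. Prelp, which encodes a basement-membrane-associated family member, came after Ogn at DM 48h with FPKM 36.87 and 35.52.

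The other genes were far below. At DM 48h with DMSO the FPKM was 7.63 and 9.27 for Aspn (asporin), 7.95 and 7.81 for Dcn (decorin), 5.91 and 6.58 for Cilp and 5.93 and 5.03 for Fmod (fibromodulin, a keratan sulfate proteoglycan). Aspn and Dcn overlapped in level at that stage, and so did Cilp and Fmod, while every step above Aspn was wider than the spread between libraries. Podn (podocan) was at 0.20 and 0.15, and Lum (lumican) at 0 and 0.04. Lum had at most 4 counts in any library and failed the low-count filter, which the other 8 passed, so 6 genes were tested.

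**Figure D1:**
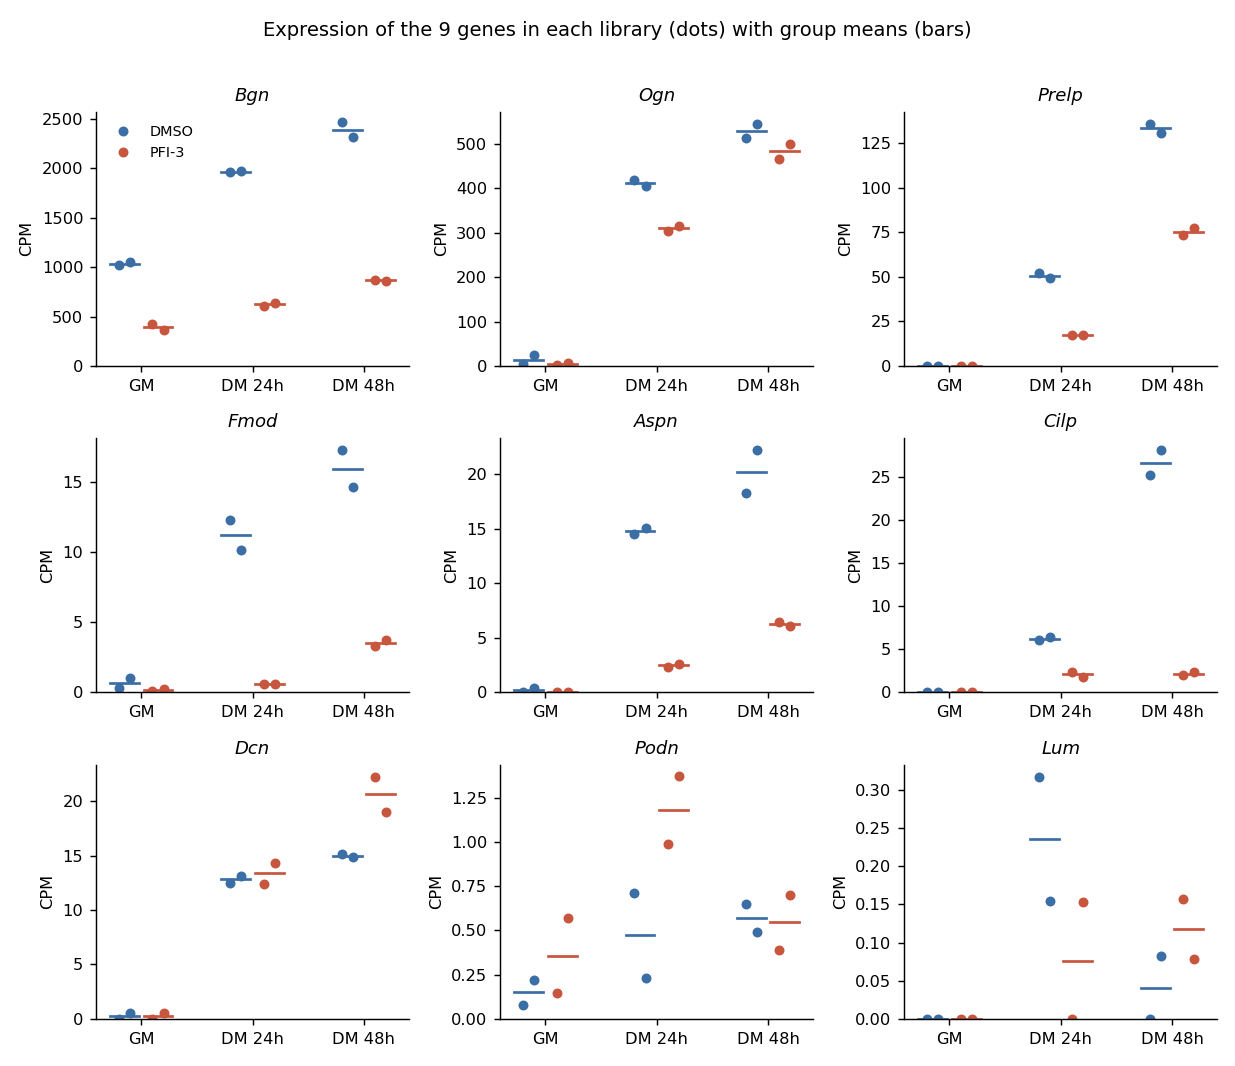
CPM (on linear axes that differ between panels) of each gene in the 12 libraries, with DMSO in blue and PFI-3 in red; dots are libraries A and B and bars are means of 2. Bgn with PFI-3 stays at or below 868 CPM where DMSO reaches 2469, while both PFI-3 libraries sit higher for Dcn at DM 48h, at 22.25 and 19.05 CPM against 15.13 and 14.89, and for Podn at DM 24h, at 0.989 and 1.37 against 0.713 and 0.232.

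Induction of differentiation raised nearly the whole set. From GM to DM 24h in DMSO cells, 5 of the 6 tested genes rose (Bgn, Ogn, Prelp, Aspn and Dcn). Of all 12545 tested genes, 30.6% were called higher. Prelp, Aspn and Dcn passed the low-count filter only through their DM libraries, so their part in this count is not independent of the filter. With no low-count filter 5 members were called as well. Most of the set started near 0. The counts in GM DMSO libraries A and B were 4 and 14 for Fmod, 0 and 0 for Cilp and 0 and 7 for Dcn. They were 0 and 3 for Prelp and 1 and 6 for Aspn. At DM 24h the same genes had 155 and 131, 76 and 83, 158 and 170, 655 and 638, and 183 and 194 counts. No GM library reached a DM 24h library for Fmod, Cilp, Dcn, Prelp or Aspn, as was the case in that direction for 40.9% of all genes. This is a description only, as Fmod and Cilp were chosen by value and all of these genes passed the filter only through DM libraries.

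With so few counts in GM the sizes are given as ratios of normalised counts summed over a group. For tested genes they have 95% exact intervals that cover counting error only. The ratio of DM 24h to GM was 444 for Prelp (152 to 2156), 55.5 for Aspn (26.7 to 139) and 48.3 for Dcn (23.2 to 121). For Fmod, chosen by its values, it was 16.4, given without an interval. Cilp was at least 54.6-fold higher, taking 3 counts over the GM group as the limit that a count of 0 allows. The adjusted p values from edgeR's quasi-likelihood test were 4.7e-11, 2.15e-08 and 1.6e-06 for Prelp, Aspn and Dcn, which passed the filter through DM libraries only.

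Ogn, whose GM counts of 44 and 322 show how far the GM pair differed, had 5276 and 5232 counts at DM 24h, a log2 change of 4.90 (SE 0.46, adjusted p 2.42e-06). Bgn started high and changed least of the called genes, by 0.92 (SE 0.07, adjusted p 4.78e-07). Podn had 1 and 3 counts in GM and 9 and 3 at DM 24h, and its difference did not pass the test (adjusted p 0.143).

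Between DM 24h and DM 48h with DMSO the genes parted. Of the 6 tested, 3 rose, where 24.2% of all genes were called higher. Cilp, without a test, went from 6.02 and 6.42 CPM to 25.21 and 28.06 (log2 change 2.10, SE 0.17), and Prelp from 51.92 and 49.38 to 135.9 and 131.0 (1.40, SE 0.09, adjusted p 1.59e-07). These were the late genes of the set. Bgn rose by 0.28 on the log2 scale (SE 0.07, adjusted p 0.00602), a call that was lost without library A of the DM 48h DMSO group (adjusted p 0.0627). Aspn rose by 0.45 (SE 0.17, adjusted p 0.0415), but the call was lost in 10 of the alternatives, among them the DESeq2 Wald test (adjusted p 0.132) and the fits without either library of the DM 48h DMSO group (0.0515 without A and 0.303 without B) or of the DM 24h DMSO group (0.176 without A and 0.13 without B).

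The changes of Ogn (0.36, adjusted p 0.44), Dcn (0.22, adjusted p 0.507) and Podn (0.27) from DM 24h to DM 48h were not called. Without the GM libraries that of Ogn passed, at adjusted p 7.11e-10, and it passed without either library of the GM DMSO group (0.0106 and 0.0118). Fmod, described only, changed by 0.51 (SE 0.21) between these stages.

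Fmod showed the deepest relative loss with PFI-3 of the set at DM 24h. Its counts there were 155 and 131 with DMSO and 8 and 8 with PFI-3, or 12.29 and 10.14 against 0.609 and 0.610 CPM. At DM 48h it stood at 17.24 and 14.64 CPM with DMSO and 3.29 and 3.75 CPM with PFI-3. The fitted log2 changes were -4.18 (SE 0.33) at DM 24h and -2.18 (SE 0.24) at DM 48h. On the scale of log2(FPKM + 1) they were smaller, at -2.03 and -1.5. The ratio of normalised summed counts at DM 24h, 16 with PFI-3 and 286 with DMSO, was 0.0544. It has no interval, as Fmod was chosen for its fall. In GM, Fmod had 4 and 14 counts with DMSO and 1 and 3 with PFI-3, a ratio of 0.21 that rests on few counts. The GM fold change of -2.17 became -1.07 without library B of the GM DMSO group and -3.07 without library B of the GM PFI-3 group.

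Cilp ran the other way in time. It had 76 and 83 counts with DMSO against 31 and 24 in the PFI-3 libraries at DM 24h, a log2 change of -1.57 (SE 0.22). At DM 48h the DMSO libraries reached 310 and 343 counts while the PFI-3 libraries stayed at 26 and 30, a log2 change of -3.60 (SE 0.20). The late rise of Cilp in DMSO cells had no counterpart in the PFI-3 libraries, whose CPM was 2.36 and 1.83 at the earlier stage and 2.04 and 2.34 at the later. In GM a single count in library B of the PFI-3 group was all that was recorded of Cilp, and no fold is given.

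Among the relatives that were tested, Bgn, Prelp and Aspn fell at both DM stages. In GM 1 of the 6 tested genes was lower, against 6.15% of all genes called lower. At DM 24h 3 of 6 were lower, against 11.4% of all genes, and at DM 48h 3 of 6, against 14.0%. With all 12 libraries, none of the 6 was called higher by edgeR, DESeq2 or limma on log2(FPKM + 0.1) at any stage, and limma on log2(FPKM + 1) called Dcn higher at DM 48h. Without the GM libraries edgeR called Dcn higher at DM 48h and Podn at DM 24h (adjusted p 6.35e-04 and 0.0402). At an unadjusted p under 0.05, edgeR had 1 of the 6 higher at DM 24h (Podn) and 0 in GM and at DM 48h. Podn passed the low-count filter only through the DM 24h PFI-3 libraries, so these results of Podn do not stand as support for a rise. The background was 5.46%, 12.2% and 13.4% of all genes called higher at the 3 stages.

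Bgn was the gene with the steadiest response. Its CPM was 1020 and 1052 with DMSO and 420.6 and 365.1 with PFI-3 in GM. At DM 24h it was 1960 and 1970 with DMSO and 611.3 and 637.9 with PFI-3, and at DM 48h 2469 and 2315 against 868.2 and 862.6. The log2 changes were -1.40, -1.65 and -1.47 (SE 0.07 each, adjusted p 8.51e-07, 6.88e-08 and 2.12e-07). Of the 6 tested genes Bgn was the only one called in proliferating cells, and each of its 3 calls held in all the alternatives run for that contrast. With PFI-3 it still rose from stage to stage, and the 48 h PFI-3 libraries remained below the GM DMSO libraries.

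Prelp was at 51.92 and 49.38 CPM with DMSO against 17.35 and 17.62 in the PFI-3 libraries at DM 24h (log2 change -1.53, SE 0.11, adjusted p 1.91e-06). At DM 48h the values were 135.9 and 131.0 against 73.63 and 77.21 CPM (-0.82, SE 0.09, adjusted p 4.3e-05). The deficit of Prelp narrowed between the stages by 0.71 on the log2 scale (SE 0.14, adjusted p 0.00597), and this was the only stage difference in the PFI-3 effect called among the 6 tested genes, against 12.1% of all genes in either direction. With limma on log2(FPKM + 0.1) it was not called (0.73, adjusted p 0.117). From GM to DM 24h edgeR called 0 of the 6 differences in PFI-3 effect (2 at an unadjusted p under 0.05, Bgn and Prelp), against 3.37% of all genes. DESeq2 also called 0, while limma called 2, Prelp and Aspn, on log2(FPKM + 1) as well as on log2(FPKM + 0.1). Between DM 24h and DM 48h, without the GM libraries, the deficits of Bgn, Ogn and Aspn also narrowed by that test (0.18, 0.27 and 0.87, adjusted p 0.0102, 4.1e-04 and 0.00397).

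Aspn, which encodes a member that binds TGF-beta and collagen, fell furthest of the tested genes. It was at 14.51 and 15.01 CPM with DMSO against 2.36 and 2.59 in the PFI-3 libraries at DM 24h (log2 change -2.57, SE 0.21, adjusted p 6.64e-06). At DM 48h the DMSO libraries held 18.22 and 22.17 CPM and the PFI-3 libraries 6.42 and 6.09 (-1.69, SE 0.18, adjusted p 3.64e-05). The change between the stages of 0.88 was not called with all 12 libraries (SE 0.29, adjusted p 0.0686). Without library A or library B of the GM DMSO group it was (adjusted p 0.0208 and 0.0199). In GM, Aspn had 1 and 6 counts with DMSO and 1 and 1 with PFI-3, and the difference was not called (adjusted p 0.224).

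Ogn and Dcn were induced like the others and kept most or all of their level. Ogn was at 418.2 and 404.9 CPM with DMSO against 303.5 and 315.4 in the PFI-3 libraries at DM 24h (log2 change -0.41, SE 0.36, adjusted p 0.451), and at 512.3 and 545.1 against 466.4 and 500.0 CPM at DM 48h (-0.13, SE 0.36, adjusted p 0.831). The groups did not overlap at either stage, as was the case in that direction for 35.2% and 35.9% of all genes. Counts of Ogn in the 4 GM libraries ranged from 39 to 322, and without those libraries the same fold changes passed, at adjusted p 2.52e-10 and 9.09e-03. Without library A or B of the GM DMSO group the DM 24h change passed as well (adjusted p 0.011 and 0.0106). In GM, Ogn stood at 3.45 and 23.77 CPM with DMSO and 2.84 and 6.55 with PFI-3, a change of -1.55 (adjusted p 0.122) that became -2.33 (adjusted p 3.93e-05) without library A of that DMSO group. It turned to 0.45 (adjusted p 0.41) without library B of the same group, and was -1.31 (adjusted p 0.0436) with a replicate block in the GM libraries alone.

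Dcn was near its DMSO level at the earlier DM stage, and its libraries lay above DMSO at the later one. At DM 24h it had 158 and 170 counts with DMSO and 163 and 188 with PFI-3 (log2 change 0.06, SE 0.26, adjusted p 0.895). At DM 48h it had 186 and 182 counts with DMSO and 284 and 244 with PFI-3 (0.46, SE 0.25, adjusted p 0.2), and the PFI-3 libraries were both above the DMSO libraries, as was the case for 35.4% of all genes. The DM 48h difference passed without the GM libraries (0.46, adjusted p 6.35e-04) and with limma on log2(FPKM + 1) (0.49 on that scale, adjusted p 0.0329). In GM, Dcn had 0 and 7 counts with each agent.

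Podn and Lum stayed near the detection limit. Podn had 9 and 3 counts with DMSO against 13 and 18 in the PFI-3 libraries at DM 24h. The ratio was 2.51 (1.25 to 5.37, counting error only), with edgeR's adjusted p at 0.131, or 0.0402 without the GM libraries. Podn passed the low-count filter only through those PFI-3 libraries, so these values do not stand as support for a rise. At DM 48h it had 8 and 6 counts against 5 and 9, and in GM 1 and 3 against 2 and 8. Lum had 6 counts over the DMSO group and 2 over the PFI-3 group at DM 24h, with 1 and 3 after 48 h and 0 in GM. At this depth no difference of Lum was detectable.

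**Figure D2:**
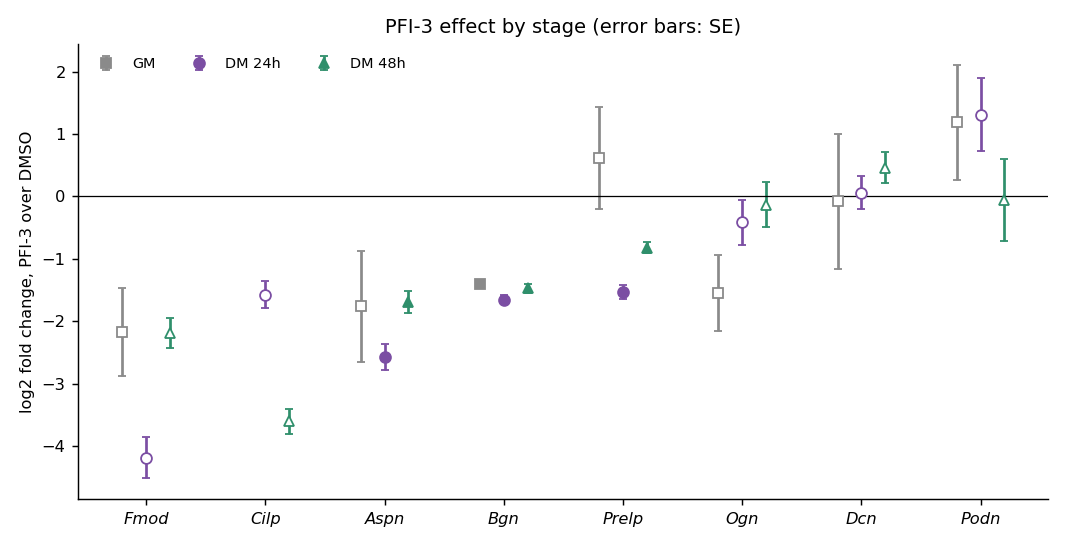
Fitted log2 change of PFI-3 over DMSO (vertical axis) with its SE for each gene in GM (grey squares), at DM 24h (purple circles) and at DM 48h (green triangles). Filled symbols were called at an adjusted p under 0.05, while Fmod and Cilp are open because they were not tested, and Cilp in GM is left out; Bgn lies between -1.40 and -1.65 at every stage and Dcn at or above -0.08.

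Setting the PFI-3 cells at DM 48h beside the DMSO cells at DM 24h separated the genes again. The 2 groups differ in both time and agent, so the values are given without a test. Prelp (73.63 and 77.21 CPM against 51.92 and 49.38), Ogn (466.4 and 500.0 against 418.2 and 404.9) and Dcn (22.25 and 19.05 against 12.52 and 13.16) were above the earlier DMSO level in both PFI-3 libraries. Bgn (868.2 and 862.6 against 1960 and 1970), Aspn (6.42 and 6.09 against 14.51 and 15.01), Fmod (3.29 and 3.75 against 12.29 and 10.14) and Cilp (2.04 and 2.34 against 6.02 and 6.42) were still below it. Of all genes, 37.6% lay above and 37.2% below in both libraries.

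The make-up of the set shifted with these changes. Summed over the 9 genes, the FPKM was 1041 and 1033 with DMSO and 411 and 429 with PFI-3 at DM 24h, and 1270 and 1219 against 606 and 618 at DM 48h. Bgn made up 80.4% and 81.0% of the sum with DMSO at DM 24h and 65.5% in both PFI-3 libraries. The share of Ogn was 16.3% and 15.9% with DMSO and 31.0% and 30.8% with PFI-3. At DM 48h Bgn held 79.3% and 77.4% with DMSO and 62.0% and 60.5% with PFI-3. These shares are those of a closed sum, so the larger share of Ogn accompanies the lower level of Bgn.

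Several of the genes lie side by side in the genome, in the clusters known for this family. On chromosome 1 (GRCm38), Prelp (chr1:133910304-133930102, minus strand) lies 107.2 kb before Fmod (chr1:134037254-134048280, plus strand), with Optc beside Prelp. On chromosome 13, Aspn (chr13:49544443-49567565) and Ogn (chr13:49608015-49624501) lie in the order Ecm2, Aspn, Omd, Ogn, and on chromosome 10, Dcn (chr10:97479500-97518163) and Lum (chr10:97565501-97572703) lie beside Kera and Epyc. Bgn (chrX:73483601-73495936), Cilp (chr9:65265180-65280614) and Podn (chr4:108014793-108031954) have no family neighbour in the set.

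Neighbours on chromosome 13 did not share one response. Aspn changed by -2.57 and -1.69 at DM 24h and DM 48h, while Omd, 14.9 kb further on, changed by 0.08 and -0.20 (adjusted p 0.802 and 0.48) and Ogn by -0.41 and -0.13. Ecm2, 11.7 kb before Aspn, fell by 1.32 and 1.29 on the log2 scale (adjusted p 0.00218 and 0.00182) at 3 to 78 counts a library. Omd and Ecm2, like Optc, are named for their place beside the members and after their values were seen. Optc, with at most 39 counts, changed by -1.49 (adjusted p 0.055) and -0.53 (adjusted p 0.479). Kera was not listed in the files, and Epyc had at most 1 count.

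Aspn and Ogn lie inside Cenpp, a centromere protein gene on the other strand. No source used here says whether the counting kept the strands apart, and a share of Cenpp reads in their counts was not tested. In the GM DMSO libraries Cenpp was at 6.19 to 7.75 CPM and Aspn at 0.0784 and 0.4429 CPM. Cenpp was at 3.09 to 9.21 CPM in all libraries and changed by -0.20 with PFI-3 at DM 24h (adjusted p 0.545) and by 0.72 at DM 48h (adjusted p 0.0386). An antisense gene, Gm15851, overlaps Prelp and has no row of its own in the files.

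**Figure D3:**
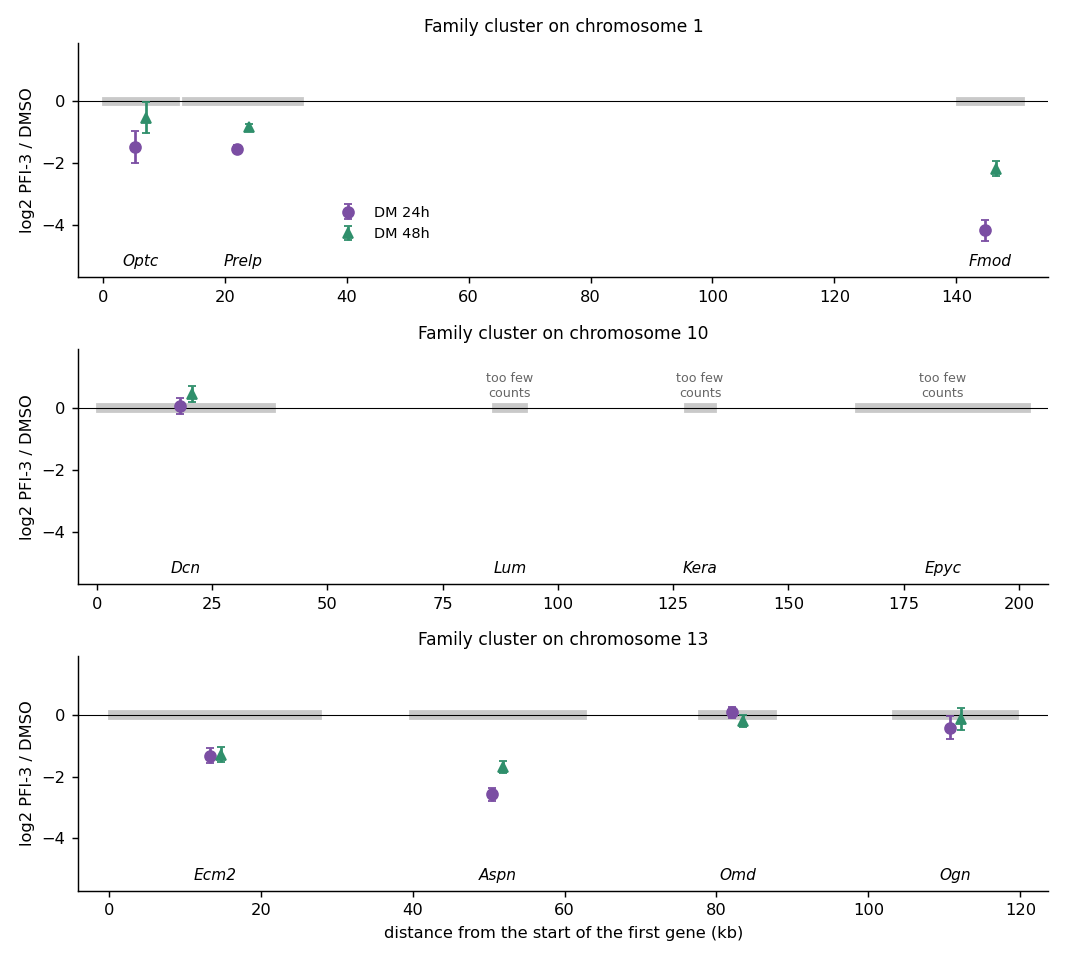
Fitted log2 change of PFI-3 over DMSO with its SE at DM 24h (purple circles) and DM 48h (green triangles) for the genes of the 3 family clusters, against distance in kb from the start of the first gene; grey bars mark the genes. On chromosome 13 Ecm2 and Aspn lie below -1 while Omd and Ogn lie between -0.41 and 0.08, and on chromosome 1 Fmod lies lowest, at -4.18 and -2.18.

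For each member with a mean of at least 1 CPM, the genes with the most similar pattern were taken from 10367 genes by Pearson's r of log2(CPM + 1) over the 12 libraries. The r values describe these libraries, which share stage and treatment, and have no test. The pattern of Fmod was nearest to that of Postn (r 0.992), which encodes the matrix protein periostin, followed by Megf10 (0.989), Cmklr1 (0.983), A130010J15Rik (0.971) and Col1a1 (0.965), a chain of type I collagen. The closest to Cilp were D630003M21Rik (0.986), Spin1 (0.976), Sema3g (0.975), Pla2g16 (0.974) and Akr1b8 (0.971). Those of Prelp included Arpp21 and Rb1 (0.998 each) and the muscle genes Mymx, Tnnt1 and Synpo2l (0.997 each).

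Dcn was nearest to Itm2b, Tmem64 and Frem1 (0.995 each), Mmp2, a gelatinase, and Fndc1 (0.994 each). Ogn was nearest to Bhlhe41 (0.999), Sema3d and Islr (0.997 each), Fndc1 (0.995) and Ssc5d (0.994), so Fndc1 stood on both lists. Bgn was nearest to Reep2 and Ubtd1 (0.97 each), Lpin3 and Map1b (0.95 each) and its own relative Podnl1 (0.947). For Aspn they were Rtl3 and 4931428F04Rik (0.992 each), Kif24 (0.99), Tecr (0.988) and Pde2a (0.987).

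For the gene lists that follow, the counts stand beside 5.46%, 12.2% and 13.4% of all genes called higher and 6.15%, 11.4% and 14.0% called lower with PFI-3 at the 3 stages in turn.

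Of 10 further genes related to the members, 9 were listed in the files and 6 passed the low-count filter. At DM 24h 2 of the 6 fell and 1 rose with PFI-3, and at DM 48h 2 fell. Podnl1, a relative of podocan, fell at each stage, by 0.79, 0.67 and 0.64 on the log2 scale at the 3 stages (adjusted p 9.52e-04, 5.06e-04 and 5.23e-04), and its GM call was lost with only the libraries compared (0.183). Tsku, which encodes the secreted protein tsukushi, rose at DM 24h by 0.49 (adjusted p 0.0246), a call that was lost without any one of the 4 DM 24h libraries (adjusted p 0.0825 to 0.142). The second fall was that of Ecm2.

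Collagens form the fibrils that these proteins bind. Of 12 collagen genes tested, 5 fell with PFI-3 in GM, 8 after 24 h of differentiation and 6 after 48 h, where 1 rose, and the median log2 change of the 12 was -0.57, -0.77 and -0.55, where that of all 12545 genes was -0.01, -0.001 and 0.001. Col1a1 fell from 398 ± 2.56 to 62.6 ± 1.78 CPM at DM 24h (mean ± SD, n = 2, log2 change -2.67, SE 0.07, adjusted p 6.07e-10) and by 2.20 at DM 48h. Col5a3, a minor fibril chain, fell by 2.34 at 24 h and 1.14 at 48 h (adjusted p 1.67e-06 and 1.16e-04). Col12a1, which encodes a fibril-associated collagen, went against the others at DM 48h, with a rise of 1.04 (SE 0.17, adjusted p 7.26e-04). Of the GM falls, the calls of Col1a2 and Col6a3 were lost with only the libraries compared (edgeR, adjusted p 0.237 and 0.0519). That of Col1a1 held in all the alternatives. In DMSO cells 11 of the 12 rose from GM to DM 24h, against 30.6% of all genes.

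Enzymes that build the sugar chains did not share one direction. Of 21 enzymes of the linker and of chondroitin and dermatan sulfate, 4 rose and 2 fell in GM, 2 rose and 4 fell at DM 24h, and 6 rose and 2 fell at DM 48h, with medians of 0.03, 0.06 and 0.18. Chst3, a chondroitin 6-O-sulfotransferase, fell by 0.77, 1.88 and 1.09 at the 3 stages (adjusted p 0.0364, 3.89e-05 and 0.00108), the GM call being lost in 14 of 21 alternatives. Chpf, a chondroitin polymerising factor, rose by 0.41, 0.41 and 0.80 (adjusted p 0.00649, 0.00271 and 1.7e-05), the GM call being lost with only the libraries compared (0.21). Dse, the epimerase that turns chondroitin into dermatan sulfate, rose by 0.62 at DM 48h (adjusted p 9.2e-05). Of 6 keratan sulfate enzymes, 1 rose in GM, 3 rose at DM 24h, and 3 rose and 1 fell at DM 48h. The galactosyltransferase gene B4galt4 rose by 0.61 at 24 h and 0.51 at 48 h (adjusted p 0.0055 and 0.00859). Both calls were lost with the DESeq2 Wald test (adjusted p 0.0566 and 0.0883). They were also lost without library B of the DM 24h DMSO group (adjusted p 0.0556), and without library A of the DM 48h DMSO group or the PFI-3 library B of the same stage (0.0758 and 0.0517).

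The other lists were mixed as well. Of 14 other proteoglycan core proteins, 1 rose and 2 fell in GM, 4 rose and 2 fell at DM 24h, and 1 rose and 2 fell at DM 48h. Sdc1, which encodes the cell-surface syndecan-1, fell by 0.55 at 24 h and 0.45 at 48 h (adjusted p 6.97e-05 and 2.17e-04), while Vcan, which encodes versican, rose by 0.44 in GM (adjusted p 0.00643, or 0.282 with only the libraries compared). Of 19 genes of the TGF-beta pathway, 2 rose and 2 fell in GM, 3 rose and 4 fell at DM 24h, and 1 rose and 5 fell at DM 48h. The ligand genes Tgfb2 and Tgfb3 fell at DM 24h by 0.69 and 0.68 (adjusted p 0.00413 and 0.00402), the call of Tgfb2 being lost without library A of the DM 24h PFI-3 group (0.0514). The latency protein gene Ltbp2 fell in GM by 0.64 and at DM 48h by 0.93 (adjusted p 2.18e-04 and 4.08e-06), and the GM call was lost with only the libraries compared (0.129).

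Of 14 genes for proteases and receptors of these proteins, 1 rose and 6 fell in GM, 2 rose and 3 fell at DM 24h, and 3 rose and 3 fell at DM 48h. Wisp1, whose product binds decorin and biglycan, fell by 1.23, 0.91 and 0.26 at the 3 stages (adjusted p 4.57e-06, 6.58e-06 and 0.021). Adamts5, an aggrecanase, fell by 0.88 at DM 24h (adjusted p 2.24e-04). Htra1, a secreted serine protease, rose by 0.50, 0.52 and 0.63 (adjusted p 0.00289, 8.83e-04 and 1.86e-04), the GM call being lost with only the libraries compared (0.205). The call of Wisp1 at DM 48h was lost without any one of the 4 DM 48h libraries (adjusted p 0.0674 to 0.147) and with limma (0.156 and 0.161).

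**Figure D4:**
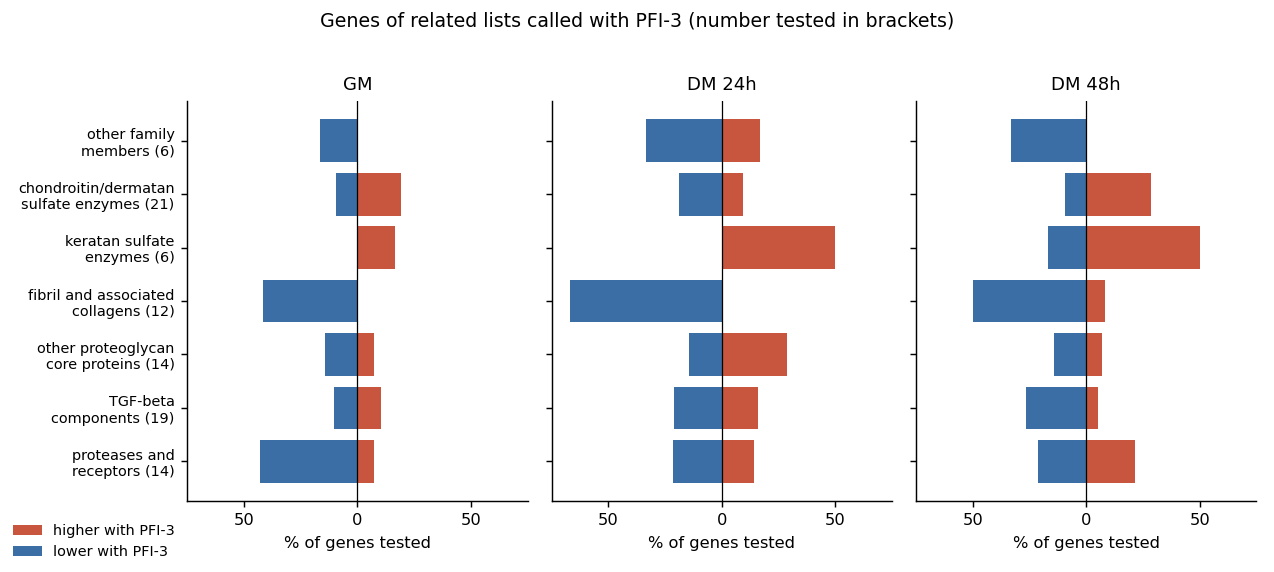
Percent of the tested genes of each list (number in brackets) called higher (red, right) or lower (blue, left) with PFI-3 at an adjusted p under 0.05, at the 3 stages. Collagens called lower number 5, 8 and 6 of 12 at the 3 stages, and keratan sulfate enzymes called higher number 3 of 6 at DM 24h and at DM 48h.

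Muscle markers moved with PFI-3 beside these results. The summed CPM of 10 myoblast and muscle markers was 4113 to 4134 with DMSO and 2259 to 2273 with PFI-3 at DM 24h, and 19495 to 19625 against 13386 to 13751 at DM 48h, with 7 of the 10 called lower at each DM stage. In GM the sum was 793 to 815 with DMSO and 497 to 623 with PFI-3, with 2 of 10 called lower. The other 8 were not called in GM. The median log2 change of the 10 markers was 0.28 in GM, -1.19 after 24 h of differentiation and -0.54 after 48 h. The lower GM sum was therefore not a fall of the marker set as a whole. The part of a lower degree of differentiation in the falls of the matrix genes was not tested. Of 10 fibroblast and tendon markers, 9 were listed, and their summed CPM was 151 to 152 with DMSO and 172 to 178 with PFI-3 at DM 24h, and 206 to 212 against 189 to 200 at DM 48h. In GM the sum was 66.0 to 117 against 59.8 to 98.9. Of the 5 that passed the low-count filter, 1 was called higher after 24 h of differentiation, while after 48 h there was 1 higher and there were 2 lower. Tcf21 was at 0 in all libraries, Tnmd in 11 and Thy1 in 8, whereas Scx, Ly6a, Pdgfra and Mkx were found in all 12, and the part of these cell types was not tested. The summed CPM of 5 endothelial markers was at most 1.8.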

How the data were processed

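Each library has 1 table, in which the authors deposited an expected count and an FPKM value (a level per transcript length and library size) per gene, per the file headers. The submitters' processing notes name HISAT, StringTie, Cufflinks, Bowtie, RSEM, DESeq2 and the build mm10, without versions or roles. A gene with no row in a table was read as 0, since 97% of the 6963 genes listed in only 1 replicate of a group had 5 counts or fewer there.

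Expected counts were rounded and tested with edgeR 4.0.16 (R 4.3.3): TMM scaling, filterByExpr (12545 genes kept), 1 quasi-likelihood fit of 6 groups to 12 libraries, and Benjamini-Hochberg adjustment over all genes, with calls under 0.05. CPM uses TMM-scaled totals. SE comes from the same test. Ratios use a floor of 3 counts over a group and, for tested genes, exact conditional binomial 95% intervals. Reads without molecular identifiers are not independent molecules.

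Alternatives were DESeq2 1.42.0, its size factors, other filters, limma 3.58.1 on log2(FPKM + 1) and log2(FPKM + 0.1), a replicate block, only the libraries compared, and leave-one-out. A fit without the GM libraries and a block in the libraries compared were added after seeing the data. The tests were run on simulated counts that had the same spread per gene in all groups, so the wider GM spread was not covered by that check. The members and gene lists were chosen with earlier results of these data known. Fmod and Cilp were left out of every test, in the DMSO comparisons too after their values were seen. Genes named from a list are among its 3 largest called rises or falls with a mean of at least 5 CPM, unless said otherwise.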

Additional observations from a re-analysis of the deposited data

Results flagged for a closer look

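For Prelp the PFI-3 effect differed between DM 24h and DM 48h by the interaction test (edgeR's quasi-likelihood test, 0.71 on the log2 scale, SE 0.14, adjusted p 0.00597). Prelp was lower with PFI-3 in both libraries at both stages, with 17.35 and 17.62 against 51.92 and 49.38 CPM at DM 24h and 73.63 and 77.21 against 135.9 and 131.0 CPM at DM 48h. The adjusted p was 0.117 with limma on log2(FPKM + 0.1). Groups of 2 libraries are too small to screen for single libraries that stand apart.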

How the results depend on the processing

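The called falls of Bgn, Prelp and Aspn with PFI-3 held in all the alternatives run for their contrasts. So did the 5 called rises of tested genes from GM to DM 24h. Of these, Prelp, Aspn and Dcn passed the low-count filter only through their DM libraries, so their rises do not stand as independent support. Counts of calls depended on which libraries set the spread. Over all genes, the 1456, 2966 and 3438 PFI-3 calls of the 3 stages became 32, 5583 and 5688 in fits of only the libraries compared, and 741, 5719 and 6034 in such fits with a replicate block. Without the GM libraries the DM counts were 5525 and 5833. For the tested members the 1, 3 and 3 calls became 2 in GM (with the block) and 5 and 5 at DM 24h and DM 48h in each of these fits. The DM 24h count includes Podn, which passed the low-count filter only through the group where it was higher. The differences in PFI-3 effect were called for 423 genes from GM to DM 24h and 1517 from DM 24h to DM 48h. They became 79 and 4154 with only the libraries compared and 763 and 4336 with the block, and the second became 4154 without the GM libraries. For the members the first of these counts went from 0 to 2 with limma on log2(FPKM + 1) or on log2(FPKM + 0.1) and to 1 with the block. The second went from 1 to 0 with limma on log2(FPKM + 0.1) and to 4 in the other 3 fits.

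Leaving out 1 library at a time gave 1019 to 2734, 1320 to 3923 and 1937 to 4323 PFI-3 calls over all genes at the 3 stages, and 1 to 2, 3 to 4 and 3 to 3 among the members. For the differences in effect it gave 92 to 995 and 790 to 2408 over all genes and 0 to 1 and 1 to 2 among the members. For DMSO cells from DM 24h to DM 48h it gave 1 to 4 member calls, with 1 without library A of the DM 48h DMSO group. The fitted GM value of Cilp, 2.25, rests on 1 count and was 3.07 without library A and 0.0 without library B of the GM PFI-3 group.

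Values that were not called changed sign in some of these fits. Leaving out 1 library at a time, the PFI-3 change in GM was -4.83 to 4.76 for Dcn, -2.33 to 0.45 for Ogn, -0.29 to 4.3 for Prelp and -0.06 to 2.07 for Podn. It was -0.05 to 0.16 for Dcn at DM 24h and -0.53 to 0.3 for Podn at DM 48h, and 0.01 for the latter with limma at either pseudocount. With limma the GM change of Dcn was 0.0. The DMSO change of Podn from DM 24h to DM 48h was -0.31 to 1.26. The GM to DM 24h difference in PFI-3 effect was -4.7 to 4.89 for Dcn, -0.86 to 1.92 for Ogn and -0.76 to 1.37 for Podn. The cause was not tested.

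With the replicate block over all 12 libraries the PFI-3 calls were 1489, 3040 and 3452, and 1, 3 and 3 among the members. Same-letter libraries deviated together in GM (correlation 0.395) but not at DM 24h or DM 48h (0.013 and 0.03). The main test did not take the letters as pairs at any stage, so that shared deviation stayed in the spread used for its GM contrasts. Depth limits Lum and Podn, and in GM all of the set but Bgn and Ogn, as counts were few. Ogn in GM was limited by the gap between its DMSO libraries, at 44 and 322 counts.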
